A study of Mus musculus with 16 samples.

Results

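Musclin, the peptide encoded by Ostn, and the 3 natriuretic peptide receptor genes Npr1, Npr2 and Npr3 were followed across 4 ages in gastrocnemius, a calf muscle of mainly fast fibres. These 4 genes were taken by name, each through the single array probe assigned to one of its transcripts, and 3 of them were among the 21777 genes tested. The set was selected on the signals of its probes across the 4 ages, with the change of Ostn already known, so the levels and differences of the 4 genes between ages are descriptions and carry no test. The muscles came from untreated female mice of the inbred strain C57Bl/6J aged 3, 15, 24 or 29 months, and no group carried a genetic change or received an agent. Each age had 4 samples, each hybridised to 1 one-colour (Cy3) array.

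Musclin is a small peptide secreted mainly by skeletal muscle that resembles the natriuretic peptides. It binds Npr3, the clearance receptor that takes up natriuretic peptides for breakdown, and can thereby leave more of them to act on Npr1 and Npr2, the receptors that make cyclic GMP (cGMP) inside the cell. In muscle, Ostn transcription is known to respond to feeding, insulin and exercise, with Foxo1 described as a repressor of it, and musclin has been linked through cGMP to Ppargc1a and mitochondrial content.

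Levels are log2 processed spot signals minus the 75th percentile of signals on the same array, so a value of 0 equals that percentile and a step of 1 is a doubling in signal. They compare samples for 1 probe and cannot rank different genes, whose probes differ in brightness. Depending on the array, 48.0% to 60.9% of the non-control spots stood well above background, and 0 were saturated. The fast fibre genes checked (10 of 10, among them Myh4 and Pvalb) were well above background on all 16 arrays. So were all 7 slow fibre genes checked, and such detection cannot tell 1 muscle from another. Ages of 3 and 15 months lay on slide 1 and ages of 24 and 29 months on slide 2, each age in a row of its own. Slide and age, or slide row and age, therefore cannot be told apart. Whether the 4 samples of each age are 4 different animals is not said in the labels. Errors and p-values then cover only the sample-to-sample spread, which may be technical, and precision is limited by having 4 arrays an age.

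Ostn was low in young muscle and higher at every later age, with its highest mean at 15 months. At 3 months its level was 1.96, 2.07, 1.89 and 1.79 in replicates 1 to 4, a mean of 1.93 ± 0.11 (SD, n = 4). At 15 months it was 5.85, 5.52, 5.40 and 4.32, a mean of 5.27 ± 0.66 (SD, n = 4). All 4 samples of 15 months lay above all 4 of 3 months, with a gap of 2.26 between the nearest pair, and replicate 4 was the lowest of its age. At 24 months the levels were 3.33, 4.45, 5.51 and 4.39, with a mean of 4.42 ± 0.89 (SD, n = 4). At 29 months they were 3.78, 4.12, 3.47 and 4.48, with a mean of 3.96 ± 0.43 (SD, n = 4). Replicates 2, 3 and 4 of 24 months lay within the range of 15 months, and replicate 1 lay below all samples of 29 months. By SD, 24 months was the most scattered age. The probe was well above background on all 16 arrays, with processed signals of 864 to 1252 at 3 months, 5691 to 13867 at 15 months, 2362 to 11769 at 24 months and 2687 to 5308 at 29 months.

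Against 3 months, the mean of Ostn was higher by 3.35 at 15 months (SE 0.39, 10.2-fold), by 2.49 at 24 months (SE 0.39, 5.63-fold) and by 2.03 at 29 months (SE 0.39, 4.09-fold). None of these 3 comparisons had overlapping samples, a separation that 12.1%, 14.8% and 19.7% of all tested genes showed in the same comparisons, in either direction. In the table of 21777 genes, 1 gene had a larger increase than Ostn from 3 to 15 months, 37 had one from 3 to 24 months and 109 from 3 to 29 months, beside medians over all genes of -0.01, -0.02 and -0.04. From 15 to 24 months the mean differed by -0.85 (SE 0.39) and from 24 to 29 months by -0.46 (SE 0.39), and the samples overlapped in both. Ordered by mean, 15 months came first, then 24, 29 and 3 months. Only the last neighbours in that order, 29 and 3 months, were separated without overlap. The difference of 15 from 3 months lay within 1 slide, whereas those of 24 and 29 from 3 months spanned both. Leaving out any 1 array kept the increase between 3.15 and 3.66 at 15 months, between 2.13 and 2.86 at 24 months and between 1.86 and 2.20 at 29 months.

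**Figure D1:**
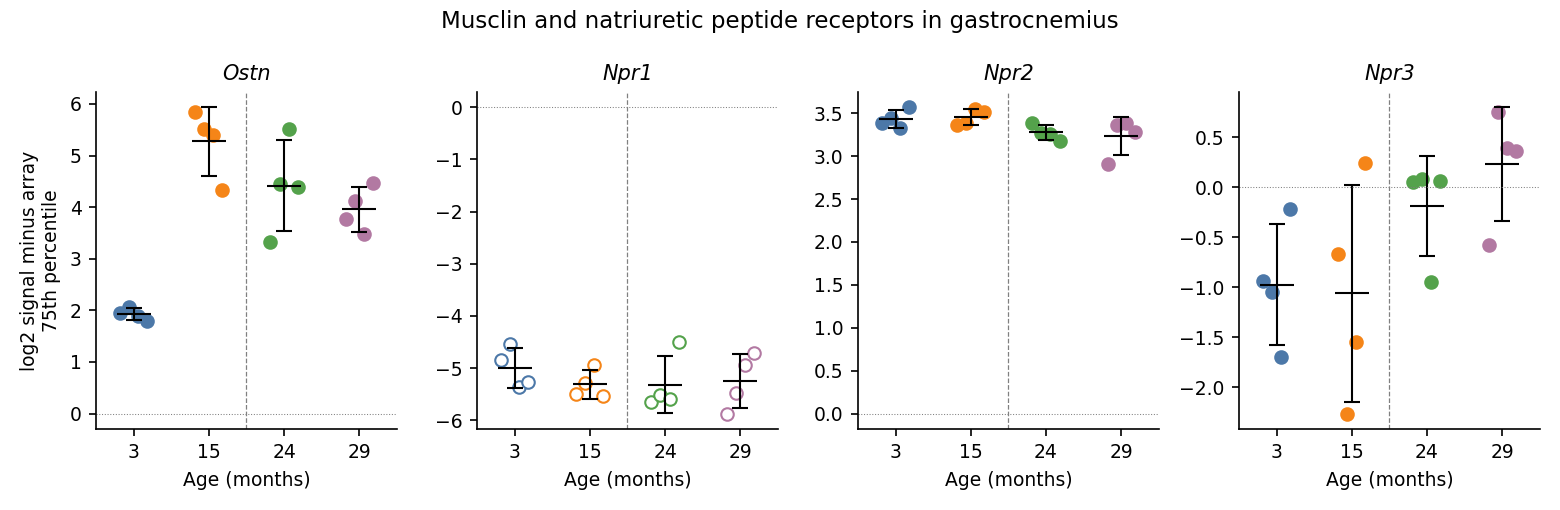
Log2 signal minus the array's 75th percentile (vertical axis, a separate scale for each gene) for Ostn, Npr1, Npr2 and Npr3 at each age in months; points are single arrays, open where the probe was not well above background, black bars are the mean and SD of 4 arrays, the dotted line marks 0 and the dashed line separates the slides. Ostn lies between 1.79 and 2.07 at 3 months and at 3.33 or above at all later ages, Npr1 is open on all 16 arrays, and Npr2 and Npr3 overlap between all ages.

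Npr1, the cGMP-making receptor for the atrial and B-type natriuretic peptides, was not well above background on any of the 16 arrays. Its processed signal lay between 4.28 and 12.9, and its level relative to the percentile between -5.87 and -4.50. No fold between ages is given, because neither side of any comparison was well above background.

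Npr2, the cGMP-making receptor for C-type natriuretic peptide, was well above background on all 16 arrays and stayed within a narrow band. The levels in replicates 1 to 4 were 3.38, 3.44, 3.33 and 3.57 at 3 months (mean 3.43 ± 0.10, SD, n = 4) and 3.37, 3.39, 3.56 and 3.52 at 15 months (mean 3.46 ± 0.09, SD, n = 4). In the old muscles they were 3.39, 3.27, 3.26 and 3.18 at 24 months (mean 3.28 ± 0.09, SD, n = 4) and 2.91, 3.37, 3.39 and 3.29 at 29 months (mean 3.24 ± 0.22, SD, n = 4). Its lowest and highest samples were 0.66 apart, or 1.58-fold, against 4.06 or 16.7-fold for Ostn. The differences between age means (SE 0.11 each) were 0.03 from 3 to 15 months, -0.18 from 15 to 24, -0.04 from 24 to 29, -0.15 from 3 to 24 and -0.19 from 3 to 29 months. Samples overlapped in all 5 comparisons, replicate 1 of 29 months was the lowest of the 16, and no pair of neighbouring ages was separated. The sign of the differences from 3 to 15 and from 24 to 29 months turned under some other settings or with 1 array left out.

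Npr3, the clearance receptor and the one to which musclin binds most tightly, varied far more between samples of 1 age than Npr2. It measured -0.94, -1.05, -1.69 and -0.22 at 3 months (mean -0.97 ± 0.60, SD, n = 4), and -0.67, -2.26, -1.55 and 0.24 at 15 months (mean -1.06 ± 1.09, SD, n = 4). At 24 months it was 0.05, 0.08, -0.94 and 0.06 (mean -0.19 ± 0.50, SD, n = 4), and at 29 months -0.58, 0.75, 0.40 and 0.36 (mean 0.23 ± 0.57, SD, n = 4). The samples of 15 months ran from the lowest of all 16 to above all samples of 3 and 24 months, while 3 of 4 samples of 29 months lay above every sample of 3 months. The mean at 29 months was higher than at 3 months by 1.21 (SE 0.47, 2.31-fold), and a sample of 29 months exceeded one of 3 months in 15 of 16 pairs, yet the ages overlapped. From 3 to 24 months the difference was 0.79, from 15 to 24 months 0.87, from 24 to 29 months 0.42 and from 3 to 15 months -0.08 (SE 0.47 each), also with overlap. The order by mean was 29, 24, 3 and 15 months, with no neighbouring ages separated, and the sign from 3 to 15 months turned with some single arrays left out, under normexp background correction (0.09) and in the deposited values (0.06). Between 15 and 24 months and between 24 and 29 months, 0 of the 3 measured genes were free of overlap, beside 9.99% and 7.04% of all tested genes.

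The spread of Npr3 between samples went with that of slow fibre genes. A slow fibre score was taken as the mean deviation of 7 genes of slow-twitch contraction and calcium handling (Myh7, Myl2, Myl3, Tnnt1, Tnni1, Tnnc1 and Atp2a2) from their own means over the 16 arrays. Across the 16 arrays, Pearson's r between Npr3 and that score was 0.83 and Spearman's rho 0.89, and without the 2 arrays farthest from the median score, both of 3 months, r was 0.83 over 14 arrays. Within slides r was 0.75 over the 8 arrays of slide 1 and 0.78 over the 8 of slide 2, and after the mean of each age was removed from both it was 0.78. The single genes correlated with Npr3 at between 0.73 for Myl2 and 0.87 for Atp2a2. Replicate 4 of 15 months, where Npr3 was highest for its age at 0.24, also had the highest slow fibre score of its age (0.84, against -0.62 to -0.65 in the other samples). Replicate 1 of 29 months, the lowest in Npr3 at -0.58, had the lowest score of its age (-0.46, against 0.62 to 0.88). Some samples departed from this order. Replicate 3 of 24 months, lowest of its age in Npr3 at -0.94, scored 0.10, against 0.05 in replicate 1 with Npr3 at 0.05. At 3 months replicate 1 had the highest score (0.25) but an Npr3 level of -0.94, below -0.22 in replicate 4 (score 0.21). The coefficients describe arrays that share slides and overall brightness, and they were chosen for display after the values had been seen.

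All 7 slow fibre genes were well above background on all 16 arrays, and their summed processed signal ran from 124479 to 564174 at 3 months, 215173 to 741206 at 15 months, 344073 to 483753 at 24 months and 322427 to 574850 at 29 months. In limma's moderated test, 0 of 7 passed in any of the 5 comparisons, beside 0.0964% to 14.6% of all genes. At an unadjusted p under 0.05 in limma were 5 from 3 to 29 months and 2 from 3 to 24 months. The share of all genes at that unadjusted threshold is not given, so these counts cannot be judged against it. The median difference of the 7 genes from 3 to 29 months was 1.05 (limma adjusted p between 0.0886 for Tnnt1 and 0.586 for Myl3). Slow fibre genes thus moved with Npr3 over the 16 arrays, though not in every sample, and their part in its level was not tested. In whole muscle, fewer cells of a type and less RNA per cell cannot be told apart. Ostn did not follow the slow fibre score, with r of 0.14 over the 16 arrays and of -0.23 once age means were removed. For Npr2 r with the score was 0.03 over the 16 arrays but 0.55 once age means were removed, so within ages the likeness was not particular to Npr3. Npr3 is also a transcript of fat cells, and its r with a score of 7 adipocyte genes was 0.09, or 0.28 with age means removed. Replicate 4 of 24 months, with an adipocyte score of 3.13 against -0.01 to 0.34 in the other samples of that age, had an Npr3 level of 0.06, beside 0.05 and 0.08 in replicates 1 and 2. The part of fat cells in the Npr3 level was not tested.

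**Figure D2:**
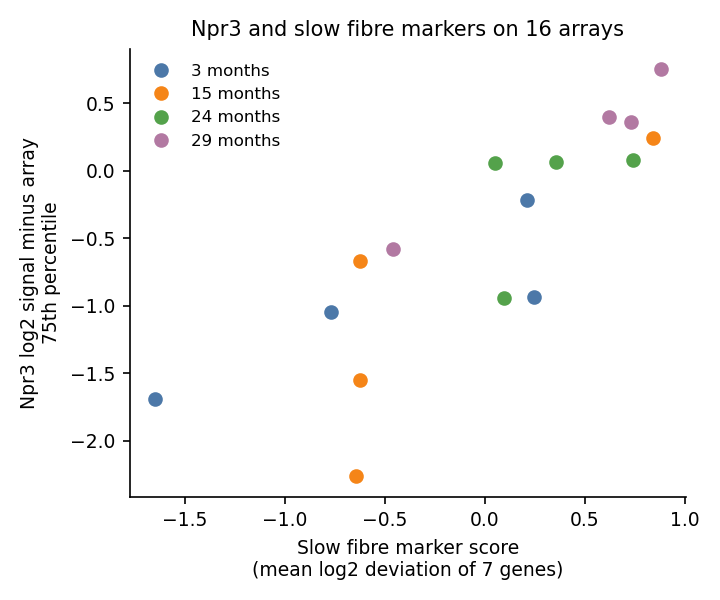
Npr3 log2 signal minus the array's 75th percentile (vertical axis) against the slow fibre score, the mean log2 deviation of 7 slow fibre genes (horizontal axis), with 1 point for each of the 16 arrays coloured by age. Points rise together from the lowest scores at 3 and 15 months to the highest at 29 months (r = 0.83), and at 3, 15 and 29 months the sample with the lowest score also has the lowest Npr3 level of its age.

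Among 12889 genes with a RefSeq symbol, the profile over the 16 arrays most like that of Ostn belonged to Tdrp (r = 0.90), followed by Itpr1, an intracellular calcium release channel (r = 0.89), Wdr60, a ciliary dynein subunit (r = 0.88), Maob, a mitochondrial monoamine oxidase (r = 0.88), and Mib1, a ubiquitin ligase of Notch signalling (r = 0.86). With age means removed, r with Ostn was 0.65 for Tdrp, 0.64 for Itpr1, 0.68 for Wdr60, 0.32 for Maob and 0.50 for Mib1. Part of the likeness thus lay between ages, most of all for Maob. For Npr2 the closest were Ppp2r5b, a regulatory subunit of protein phosphatase 2A (r = 0.94, and 0.92 without age means), Abcb4, a phospholipid transporter (0.93 and 0.89), and Slc39a3, a zinc transporter (0.92 and 0.87). For Npr3 they were Fabp3, the fatty acid binding protein of heart and slow muscle (0.89 and 0.86), Xpo4, a nuclear export receptor (0.88 and 0.82), and Cidea, a lipid droplet protein (0.88 and 0.83). Between the members themselves r was -0.14 for Ostn with Npr2, -0.05 for Ostn with Npr3 and -0.09 for Npr2 with Npr3. With age means removed, these became -0.24, -0.45 and 0.52. All are descriptions over 16 arrays that share slides. Near Ostn on the chromosome, in an order taken from RefSeq and looked up after the values were seen, Il1rap, Gmnc and Uts2b had no probe that passed the background filter. Ccdc50, the nearest tested gene on that side, differed by -0.12 from 3 to 15 months (SE 0.15, limma adjusted p = 0.914), where Ostn was 3.35 higher. From 3 to 29 months Ccdc50 fell by 0.56 (-0.56, SE 0.15, limma adjusted p = 0.0202), where Ostn was 2.03 higher.

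The other genes of natriuretic peptide, cGMP and insulin signalling were a list of 50, of which 39 had a probe that passed the background filter. This list and its parts were chosen with earlier results of these data known. Their counts beside the share of all genes are therefore descriptions and do not test the lists. With limma's moderated test and Benjamini-Hochberg adjustment over all 21777 genes, 2 of the 39 passed from 3 to 15 months (1 higher and 1 lower, against 0.978% of all genes), 4 from 3 to 24 months (1 higher and 3 lower, against 4.66%) and 10 from 3 to 29 months (6 higher and 4 lower, against 14.6%). Between the later ages, 2 passed from 24 to 29 months (both higher, against 1.91% of all genes) and 0 from 15 to 24 months (against 0.0964%, with 6 at an unadjusted p under 0.05). The median difference over the 39 genes was -0.06 from 3 to 15, -0.13 from 15 to 24, 0.07 from 24 to 29, -0.11 from 3 to 24 and -0.05 from 3 to 29 months. Over all genes it was -0.01, -0.02, -0.03, -0.02 and -0.04 in the same order.

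Of the ligands of the receptors, Nppa, the atrial peptide, stayed at its dim level, with means of -2.47 ± 0.30 (SD, n = 4) at 3 months and -2.47 ± 0.21 (SD, n = 4) at 29 months and a limma adjusted p of 0.996. Nppb, the B-type peptide, was well above background on 4 of 4 arrays at 3 months but on 2 of 4 at 15 months, and differed by -0.15 from 3 to 29 months (SE 0.25, limma adjusted p = 0.755). Nppc, the C-type peptide that Npr2 binds, had no probe above the filter. In limma, 0 of 3 tested genes of peptide processing and breakdown (Furin, Pcsk6 and Ide) passed in any comparison, beside 0.0964% to 14.6% of all genes. Nor was any of the 3 at an unadjusted p under 0.05. Of 9 cGMP phosphodiesterases and of the 3 inhibitory G proteins (Gnai1, Gnai2 and Gnai3) through which Npr3 signals, limma also called 0 in every comparison, with at most 2 of each list at an unadjusted p under 0.05. Other settings called some phosphodiesterases. Pde2a and Pde10a passed from 3 to 29 months without replicate 1 of 29 months, with array weights and without the 4 arrays of lowest weight. In the deposited values Pde3a passed from 24 to 29 months and Pde9a from 3 to 24 months, as did Nppb in both. Prkg1, the main cGMP-dependent kinase, differed by -0.03 from 3 to 29 months (SE 0.32, limma adjusted p = 0.970).

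The insulin and FOXO list was tied to musclin by what is known of its control, but was also chosen with earlier results known. In it, 5 of 8 tested genes passed from 3 to 29 months (against 14.6% of all genes), 4 of them higher. Foxo1, a transcription factor held out of the nucleus by insulin signalling, measured 1.97, 2.38, 2.51 and 2.78 at 3 months, 3.70, 4.13, 3.92 and 3.77 at 15 months, 4.03, 4.06, 3.71 and 3.68 at 24 months and 4.57, 3.88, 5.20 and 3.63 at 29 months. All later samples lay above those of 3 months. It rose by 1.47 at 15 months (SE 0.27, limma adjusted p = 0.0183), by 1.46 at 24 months (adjusted p = 0.00871) and by 1.91 at 29 months (adjusted p = 0.00044). Irs1, the docking protein of the insulin receptor, measured 4.15, 4.88, 5.10 and 4.78 at 3 months and 4.03, 3.67, 3.88 and 3.69 at 15 months. It then lay between 3.34 and 3.72 at 24 months and between 3.41 and 4.10 at 29 months, below all samples of 3 months. Its fall was 0.91 at 15 months (-0.91, SE 0.19, limma adjusted p = 0.0371), 1.21 at 24 months (-1.21, adjusted p = 0.00325) and 1.04 at 29 months (-1.04, adjusted p = 0.00256). Foxo1 and Irs1 thus differed from 3 months at every later age, as did Ostn. All of these differences share the same 4 arrays of 3 months. The calls of Foxo1 and Irs1 at 15 months were lost on leaving out single arrays. That of Foxo1 was lost without replicate 1 or 2 of 3 months or replicate 2 or 3 of 15 months (adjusted p up to 0.0716). That of Irs1 was lost without replicate 2, 3 or 4 of 3 months, any replicate of 15 months or replicate 4 of 29 months (adjusted p up to 0.129), and also under median scaling, with no filter on dim probes and with the mean over probes (up to 0.164). The calls of both at 24 and 29 months held in all 16 leave-one-out fits.

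Ppargc1a, the coactivator of mitochondrial genes, was between 2.91 and 3.56 at 3 months and between 3.73 and 4.88 at 29 months, and rose by 0.98 (SE 0.23, limma adjusted p = 0.0109). At 15 months it was higher than at 3 months by 0.68 (limma adjusted p = 0.232) and did not pass. With array weights, and without the 4 arrays of lowest weight, Ppargc1a did pass from 3 to 15 months and from 3 to 24 months. Irs2, a second docking protein, rose by 0.94 from 24 to 29 months (SE 0.22, limma adjusted p = 0.0392) and by 0.67 from 3 to 29 months (adjusted p = 0.0488). Insr, the insulin receptor, named here after its value was seen, rose by 0.36 from 3 to 29 months (SE 0.10, adjusted p = 0.0299). The calls of Irs2 were lost in 10 of 16 leave-one-out fits from 24 to 29 months, without replicate 1 or 4 of 3 months, 2 or 3 of 15 months, 2, 3 or 4 of 24 months or 1, 3 or 4 of 29 months (adjusted p up to 0.113). From 3 to 29 months they were lost in 11, without replicate 1, 2 or 4 of 3 months, any of 15 months, 2 or 3 of 24 months or 1 or 3 of 29 months (up to 0.149). Of 12 other alternatives, the replicate block among them, 6 lost the first of these calls (up to 0.364) and 9 the second (up to 0.226). That of Insr was lost without replicate 1, 2 or 3 of 3 months or 2 or 3 of 29 months (up to 0.0786) and under 5 of the 12 other alternatives (up to 0.175). Second probes of Foxo1, Irs1, Ppargc1a and Insr differed in the same direction from 3 to 29 months.

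Over the 16 arrays, r of Ostn was 0.60 with Foxo1, -0.68 with Irs1 and 0.48 with Ppargc1a. With age means removed these became -0.41 with Foxo1, 0.05 with Irs1 and -0.18 with Ppargc1a, each of the other sign. The relations over the 16 arrays thus lay between ages, and any effect of these genes on Ostn was not tested.

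**Figure D3:**
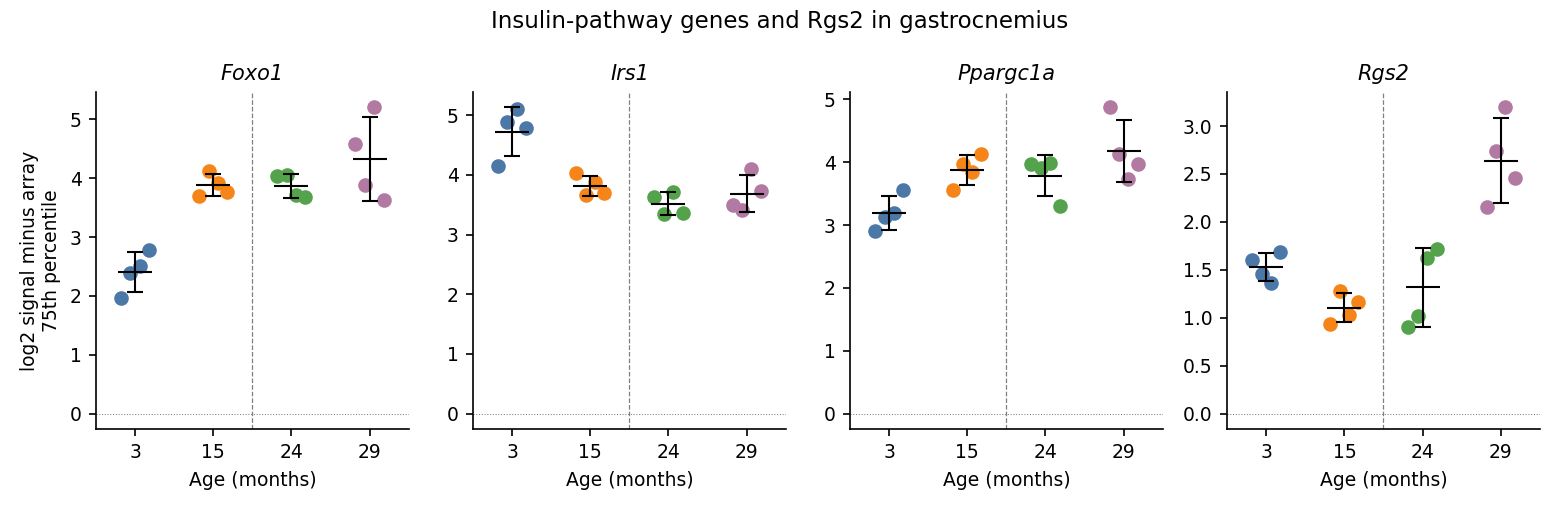
Log2 signal minus the array's 75th percentile (vertical axis, a separate scale for each gene) for Foxo1, Irs1, Ppargc1a and Rgs2 at each age in months; points are single arrays, black bars the mean and SD of 4 arrays, the dotted line marks 0 and the dashed line separates the slides. Foxo1 is above and Irs1 below all samples of 3 months at every later age, whereas Rgs2 stands apart at 29 months, between 2.15 and 3.20.

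Among cGMP effectors, 3 of 7 tested genes passed from 3 to 29 months, against 14.6% of all genes. Rgs2, a brake on G protein signalling that cGMP-dependent kinase activates in vessels, was between 0.90 and 1.72 at all ages up to 24 months and at 2.15, 2.74, 3.20 and 2.45 at 29 months. It rose by 1.32 from 24 to 29 months (SE 0.21, limma adjusted p = 0.00812) and by 1.11 from 3 to 29 months (adjusted p = 0.00343). The first of these lay within 1 slide, and its call was lost when only the 2 ages were fitted (adjusted p = 0.187). Ppp1r12a, the targeting subunit of myosin phosphatase, rose by 0.68 from 3 to 29 months (SE 0.13, limma adjusted p = 0.00269). Irag1, a kinase substrate on calcium stores, fell by 0.82 at 24 months (-0.82, SE 0.21, limma adjusted p = 0.0402) and by 0.93 at 29 months (-0.93, adjusted p = 0.00865). Its call at 24 months was lost without any replicate of 3 or 15 months or replicate 1 or 2 of 24 months (adjusted p up to 0.100), and also under quantile normalization, median scaling, no filter on dim probes and a fit of only the 2 ages (up to 0.0987). The calls of these 3 genes from 3 to 29 months held in all 16 leave-one-out fits.

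In the list of other guanylate cyclases and nitric oxide synthases, 2 of 7 tested genes passed from 3 to 29 months (against 14.6% of all genes), both lower. Gucy1b1, a subunit of the cyclase that nitric oxide activates, fell by 1.14 at 24 months (-1.14, SE 0.25, limma adjusted p = 0.0214) and by 0.95 at 29 months (-0.95, adjusted p = 0.0213). Within 1 slide, from 3 to 15 months, it differed by -0.56 (SE 0.25, limma adjusted p = 0.439). The samples of those ages did not overlap, as in 12.1% of all genes. Gucy1b1 passed there only with array weights, without the 4 arrays of lowest weight or with only the 2 ages fitted. Nos3, the nitric oxide synthase of endothelium, fell by 0.78 at 29 months (-0.78, SE 0.21, limma adjusted p = 0.0242). The calls of Gucy1b1 were lost without replicate 3 or 4 of 3 months at both ages (adjusted p up to 0.0670 at 24 months), and at 29 months also without replicate 1 or 3 of 29 months (up to 0.0587). That of Nos3 was lost without replicate 2 or 4 of 3 months or replicate 3 of 29 months (up to 0.0704), and also under median scaling and with no filter on dim probes (up to 0.0757). Gucy1b1 was not called at 29 months under median scaling or in the deposited values (up to 0.0811), nor at 24 months when only the 2 ages were fitted (0.0697). Markers of vessel cells were part of the same comparison. Endothelial genes passed as lower in 3 of 8 (against 14.6% of all genes in either direction), with a median difference from 3 to 29 months of -0.55 and summed signals of 20211 to 21707 at 3 months and 17016 to 19395 at 29 months. Smooth muscle and pericyte genes passed as lower in 4 of 8, with a median of -0.96 and summed signals of 20735 to 22829 and of 8957 to 12112. All 8 of each list were well above background on all arrays of both ages. Fibroblast genes also passed as lower in 3 of 8 (median -0.88) and tendon genes in 3 of 4 tested (median -0.96). Of 7 nerve and Schwann cell genes, 1 passed as lower and 1 as higher, with a median of -1.88 and 5 at an unadjusted p under 0.05. The part of any of these cell types in the lower levels of Gucy1b1, Nos3 and Irag1 was not tested.

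**Figure D4:**
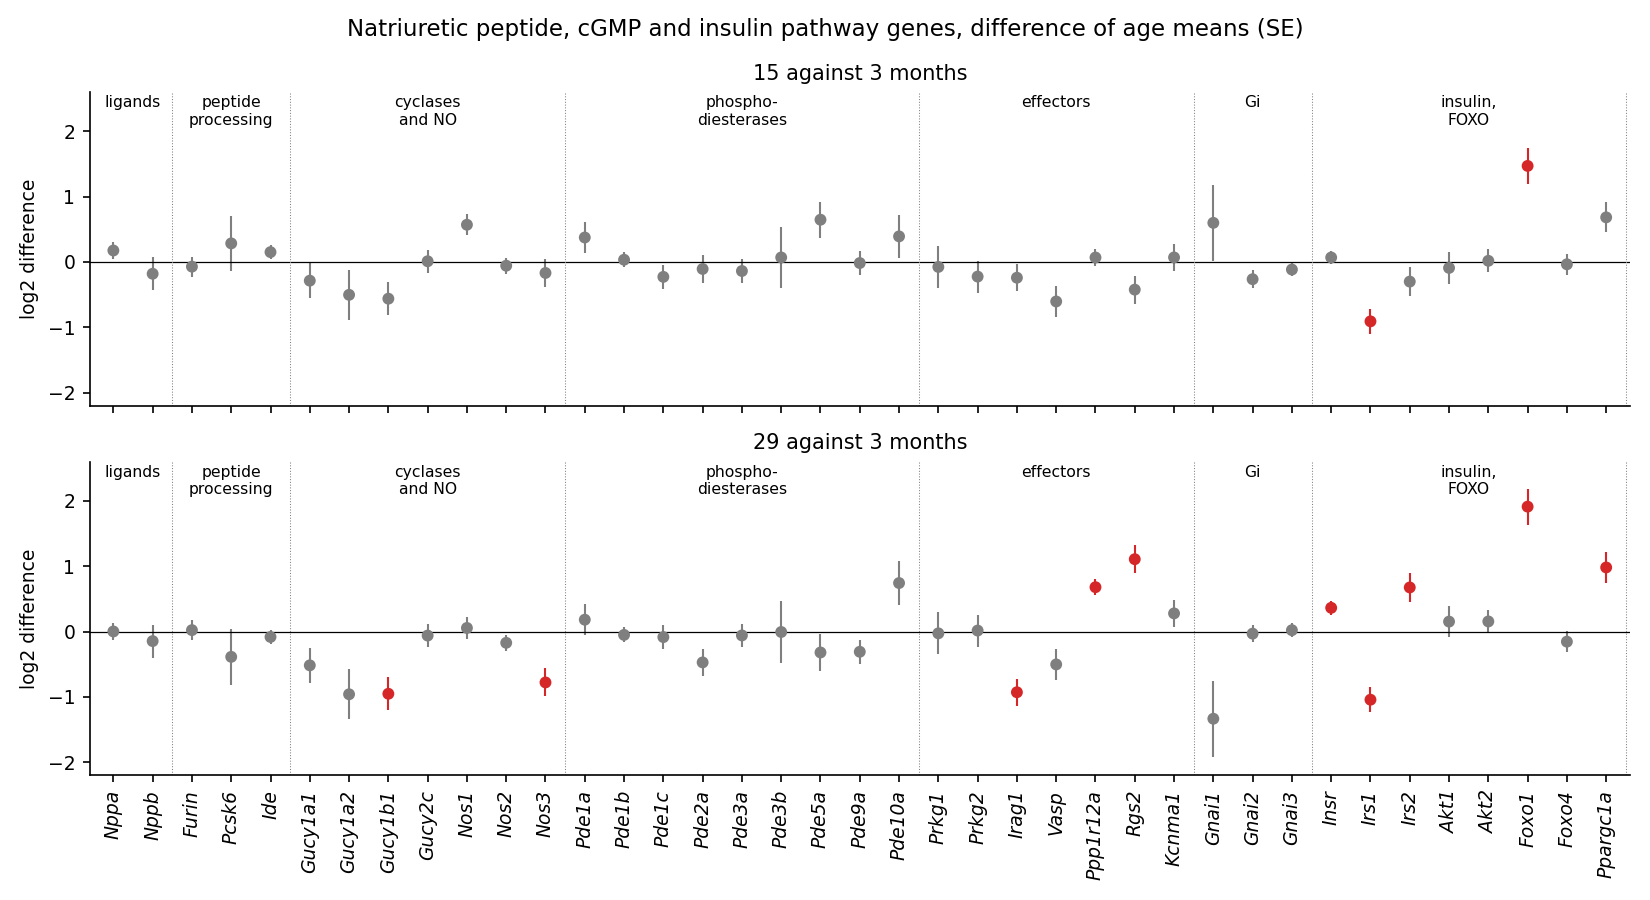
Difference of age means in log2 (vertical axis) for the 39 tested pathway genes in 7 lists (horizontal axis), from 3 to 15 months above and from 3 to 29 months below; points are differences, vertical lines the standard error, and red marks an adjusted p under 0.05 in limma. Red points number 2 at 15 months (Foxo1 and Irs1) and 10 at 29 months, where Foxo1 has the largest rise at 1.91.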

How the data were processed

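Labelled RNA from gastrocnemius was measured on 16 Agilent 1-colour arrays, 4 at each age. The scanner files give the brightness of each spot, an intensity that the authors obtained, per the file headers, with Feature Extraction 10.7.1.1, including background subtraction and flags for outliers and for spots well above background. The deposited series table holds log2 values, and the sources used here do not give how the authors made them. Its order by feature number matched the scanner files (r 0.985 to 0.993 across probes) and its probe names did not, so rows were joined on feature number, and the table served only as an alternative. Npr1 has no value in it.

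Outlier spots were left out, leaving 55588 probes. Of these, 26540 were named through transcript accessions in a RefSeq table (GRCm38.p6), used for names and gene order only, since the headers give build mm9. Signals were log2 transformed and each array's 75th percentile was subtracted. Probes marked well above background on the 4 arrays of any age were kept (28435 probes), and the brightest kept probe, by its mean, stood for its gene (21777 genes). Means of the 4 ages were fitted over all 16 arrays with limma 3.58.1 in R 4.3.3 (lmFit and eBayes, two-sided, Benjamini-Hochberg over all genes, called at adjusted p under 0.05), a procedure tested on simulated data. Standard errors come from this fit.

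Members, pathway lists and marker lists were chosen with earlier results of these data known. Named pathway genes were those called where at most 8 were called in a comparison, otherwise the 4 rises and 4 falls of smallest p, together with the ligands, Prkg1 and Ppargc1a. For likeness they were the 5 genes of highest r for Ostn and the 3 for each receptor. Replicate numbers follow the array column, and the labels name no pairing of samples. Deviations of same-numbered arrays from their age means correlated between -0.47 and 0.30 over 24 pairs of arrays. These values cannot exclude a pairing or an effect of the column, and a replicate block was among the alternatives. Alternatives were other scalings and background correction, the deposited values, other probe filters and summaries, other limma settings, and leaving out arrays. No sequence is printed.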

Additional observations from a re-analysis of the deposited data

Results flagged for a closer look

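Of 64 groups of 4 arrays looked at (the 3 measured members and the named pathway genes), 4 held a sample whose gap to the nearest other sample was large against the range of its group, a gap that chance gives in about 1 in 20 groups. Npr3 in replicate 3 of 24 months was at -0.94, below 0.05 to 0.08 in the other 3 samples. Nos3 in replicate 2 of 24 months was at 0.68 against 1.65 to 1.83. In replicate 3 of 29 months Nos3 was at 1.05 against 1.55 to 1.64. Ppargc1a in replicate 4 of 24 months was at 3.30 against 3.90 to 3.98. Ostn had no such sample at any age.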

How the results depend on the processing

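Ostn, Npr2 and Npr3 each had 1 probe, well above background on all 16 arrays. Other probe filters and the mean over probes therefore could not move their differences. Leaving out the 4 arrays of lowest weight, all of 24 or 29 months, could not move those from 3 to 15 months. With these settings counted in, the differences of the 3 genes moved by less than 1 SD in 235 of 240 alternative values. The exceptions were Npr2 under median scaling (-0.31 from 15 to 24 and -0.29 from 3 to 24 months) and under normexp background correction (-0.25 from 3 to 24 months), and, without the 4 arrays of lowest weight, a setting chosen after seeing the data, Npr3 from 24 to 29 months (1.001) and Ostn from 3 to 29 months (2.37). Median scaling also shifted the median of all genes to -0.15 from 15 to 24 and from 3 to 24 months. Small shifts in the number of pathway genes called were counted as no move. A fit of only the 2 ages, for example, called 3 genes from 3 to 15 months. The deposited values called 6 from 3 to 24 months, and no filter on dim probes called 7 from 3 to 29 months. Beyond such small shifts, the number called moved in 38 of 140 alternatives. From 3 to 15 months (2 genes) it was 1 with median scaling, 1 with no filter on dim probes and 1 with the mean over probes. It was 5 with array weights and without the 4 arrays of lowest weight, with Gucy1b1, Nos1 and Ppargc1a added. From 24 to 29 months (2 genes) it was 1 with quantile normalization, no filter, array weights or without those 4 arrays, 4 with the deposited values and 0 with only the 2 ages fitted. From 3 to 24 months (4 genes) it was 2 with only the 2 ages, and 7 with array weights and without those 4 arrays. From 3 to 29 months (10 genes) it was 6 with median scaling. From 15 to 24 months it stayed at 0. Leaving out 1 array gave 0 to 2 genes from 3 to 15 months (0 without replicate 2 of 3 months or replicate 2 or 3 of 15 months), 1 to 2 from 24 to 29 months, 2 to 5 from 3 to 24 months (2 without replicate 3 or 4 of 3 months) and 6 to 12 from 3 to 29 months (6 without replicate 3 of 29 months). A replicate block gave 2 genes from 3 to 15 months, 0 from 15 to 24, 1 from 24 to 29, 4 from 3 to 24 and 9 from 3 to 29 months. The cause of these shifts was not tested. Slide as a random block could not be fitted, because each age lay on 1 slide, and normexp used median spot signals. Signal limits Npr1 and Nppb, which lay at or near background.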
